A study of Mus musculus with 4 samples.

Results

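Trem2, Tyrobp, Syk, Plcg2, Inpp5d, Cd33, Spi1, Bin1, Picalm and Abi3 encode the microglial receptor Trem2, proteins that carry or restrain its signal, and other proteins whose human genes are linked to the risk of Alzheimer's disease. They were taken by symbol, 10 of the 32285 genes counted, each matching 1 gene. Single nuclei from the cerebral cortex were sequenced for GCLC-KO mice (labelled Gclc-KO), 2 aged 3 months and 2 aged 6 months, with 1 library for each mouse. A library is named by its age and replicate, such as 3M-2 for the second mouse of 3 months, and wherever 4 values follow each other they are those of the first and second 3M library and then of the first and second 6M library. In these mice Gclc, which encodes the catalytic subunit of the enzyme that limits glutathione synthesis, is deleted by CaMKII-driven Cre in forebrain excitatory neurons, and the Cre is not driven in microglia. All 4 libraries carry this genotype and none is wild type, the mice received no treatment, the tissue was taken from regions rich in rod-shaped microglia, and the nuclei were sorted by DAPI. The comparison of 3 with 6 months sets an age at which rod-shaped microglia are abundant beside a later one in the same line, and the genotype cannot be told apart from normal ageing in it.

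Trem2 is a receptor for lipids and lipoproteins on the surface of microglia. It has no signalling motif of its own and relies on the adaptor Tyrobp, whose ITAM (a tyrosine motif that becomes phosphorylated) recruits the kinase Syk. Syk in turn activates the phospholipase Plcg2, and the inositol phosphatase Inpp5d dampens the phosphoinositide signal that runs beside it. In mice with amyloid pathology, Trem2 is needed for microglia to turn into disease-associated microglia (DAM), which gain genes such as Itgax, Cst7 and Lpl.

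Coordinates refer to GRCm38 (mm10) with the GENCODE M21 annotation. Trem2 is at chr17:48346401-48354147 and Tyrobp at chr7:30413760-30417585, both on the plus strand. Syk is at chr13:52583173-52648792, Plcg2 at chr8:117498291-117635142, Inpp5d at chr1:87620312-87720507, Spi1 at chr2:91082390-91115756 and Picalm at chr7:90130213-90213465, all on the plus strand. Cd33 is at chr7:43524216-43544428 and Abi3 at chr11:95830074-95842476, both on the minus strand, and Bin1 is on the plus strand. The span of Abi3 overlaps Zfp652, Phospho1 and Gngt2 on the opposite strand, with 2038, 0 and 401 UMIs (molecular identifiers that tag each captured transcript once) in microglia. Bin1 overlaps the long noncoding RNA A830052D11Rik on the opposite strand, with 20 UMIs. The other 8 genes overlap no gene counted here.

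The promoters of 6 of the genes were found among RefSeq promoter sequences (GRCm38.p6), as 7 windows of 250 bases upstream of a transcript start, since Syk has 2. Because Spi1 is the transcription factor of this group, the windows were searched on both strands for GAGGAA, the core of the purine-rich element it binds, and for the longer GAGGAAGT, which contains it. GAGGAA was found in 5 of the 7 windows, against 23.3% of 32851 promoters of the same length, and GAGGAAGT in 1 window, against 2.44%. The matches stood in the windows of Trem2, Inpp5d, Cd33, Picalm and the second start of Syk, and none was found in those of Plcg2 and the first start of Syk. The windows of the receptors Trem2 and Cd33 and of the phosphatase Inpp5d are shown 5′ to 3′ because the results below turn on these genes, with the match in capitals. That of Trem2 (chr17:48346151-48346400, plus strand) holds it in reverse at −40, counted from the base before the start, that of Inpp5d (chr1:87620062-87620311, plus strand) holds the longer form at −20, and that of Cd33 (chr7:43533172-43533421, minus strand, within the annotated span of the gene) holds it at −226.
Trem2: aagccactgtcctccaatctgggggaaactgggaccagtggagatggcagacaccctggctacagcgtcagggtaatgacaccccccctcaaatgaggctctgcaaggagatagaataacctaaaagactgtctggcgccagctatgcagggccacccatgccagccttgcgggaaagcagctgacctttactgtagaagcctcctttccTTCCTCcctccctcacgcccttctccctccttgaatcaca
Inpp5d: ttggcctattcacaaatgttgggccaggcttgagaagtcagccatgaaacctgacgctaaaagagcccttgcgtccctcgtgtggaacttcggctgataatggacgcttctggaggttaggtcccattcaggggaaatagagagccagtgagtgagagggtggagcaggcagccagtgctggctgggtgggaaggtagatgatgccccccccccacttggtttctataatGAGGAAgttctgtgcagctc
Cd33: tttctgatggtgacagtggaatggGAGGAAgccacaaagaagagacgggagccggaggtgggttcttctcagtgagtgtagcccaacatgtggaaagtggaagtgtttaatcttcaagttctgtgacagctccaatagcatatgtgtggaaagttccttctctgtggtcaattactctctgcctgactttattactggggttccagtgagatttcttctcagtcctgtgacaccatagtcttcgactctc
These are matches of letters and were not tested as binding sites.

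After the study's limits on genes detected and mitochondrial UMIs, 30515 nuclei were left, with 59262228 to 65894316 UMIs in each library and a median of 5994 to 8140 UMIs in each nucleus. Between 12 and 19 barcodes were shared by any pair of libraries, at most 0.274% of the smaller one. A nucleus was assigned to a class where it held at least 3 distinct markers of that class and its score for it (the mean log level of the markers) was at least 2 times the next. The stricter gate named below asked for 4 markers and a ratio of 3, and the looser gate for 2 markers and a ratio of 1.5. This gave 465, 377, 711 and 558 microglia, or 2111 nuclei in all (6.92%). All 16 microglial markers were present in each library, with a median of 10 to 12 of them in a nucleus, and their summed level was 14391, 12453, 11986 and 12090.0 CPM (UMIs scaled to 1000000 in the class). A ratio between 2 and 2.5, close to the limit, was found for 6, 12, 19 and 9 of the microglia. The median microglial nucleus held 2225, 1465, 1691 and 2023 UMIs. No doublet caller was run, and nuclei carrying markers of another class at a similar level were left out by the ratio. The targeted gene Gclc stood at 43.6, 33.3, 34.0 and 37.0 CPM in excitatory neurons and at 68.5, 69.4, 53.1 and 54.6 CPM in microglia. With counting from the 3′ end and no wild-type library, these levels do not check the deletion.

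Microglia held most of the signal of 8 of the 10 genes, and Bin1 and Picalm were spread over other classes as well. UMIs were summed over the nuclei of a class in each library and compared by edgeR's quasi-likelihood test, with p-values adjusted over all genes and called under 0.05. In fits over the sums of 6 classes with the mouse as a block, all 10 genes were higher in microglia than in OPCs (oligodendrocyte precursors), astrocytes, excitatory neurons and inhibitory neurons, and 9 of 10 were higher than in oligodendrocytes, where Bin1 was higher instead. Calls between these classes were common. Over all genes they were made for 59.6% against OPCs, 41.3% against astrocytes, 75.5% against excitatory neurons, 72.8% against inhibitory neurons and 56% against oligodendrocytes, in either direction. Of the 14391 genes tested, 4060 were called higher in microglia than in OPCs and 3311 than in astrocytes. For excitatory neurons this number was 5341, for inhibitory neurons 5088 and for oligodendrocytes 3945.

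The receptor and its adaptor followed the microglial gate closely, though neither is one of its markers. Trem2 stood at 220.5, 159, 188 and 202 CPM in microglia, and at 1.59, 2.5, 4.70 and 5.0 CPM in the oligodendrocytes. Its level pooled over libraries was 52.8-fold higher in microglia than in oligodendrocytes and 204-fold higher than in excitatory neurons. Tyrobp was at 148, 144, 148 and 168 CPM in microglia, 49.2-fold above OPCs and 195-fold above excitatory neurons. Neither gene differed between any neighbours in the order of the remaining 5 classes (smallest adjusted p = 0.289 for Trem2 and 0.503 for Tyrobp).

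Among the signalling enzymes, Syk was at 234, 216, 193 and 200 CPM and Plcg2 at 382, 328, 344 and 387 CPM in microglia. No UMI of Syk was found in the astrocytes of any library, and microglia were at least 46.2-fold higher than the limit that 3 counts over the 4 astrocyte sums would give. Outside microglia both were found at low levels, whose source was not tested, and the pair differed in the classes with the higher level. Syk was at 1.53, 2.80, 2.00 and 2.04 CPM in excitatory neurons and at 0, 0.620, 2.25 and 0.743 CPM in inhibitory neurons, a fitted difference of 1.26 ± 0.38 on the log2 scale (adjusted p = 0.00828, edgeR). This call was lost with a looser gate (0.0514), without 3M-2 (0.0835) and without 6M-2 (0.0515), and the difference was 2.39 without 6M-1. The inhibitory neurons held 22 UMIs of Syk, 15 of them in 6M-1, and the level of that library lay among the excitatory values. Plcg2 went the other way. It stood at 2.53, 1.86, 2.10 and 2.60 CPM in inhibitory and 0.510, 0.389, 0.942 and 0.669 CPM in excitatory neurons (log2 difference −1.65 ± 0.30, excitatory minus inhibitory, adjusted p = 3.44e-05), and its groups of values did not overlap. These were the only 2 of the 10 genes called between the neuron classes, where 47.7% of all genes were called. In the oligodendrocyte lineage, Plcg2 was at 3.49, 9.51, 6.20 and 2.89 CPM in OPCs and at 0, 0, 0.881 and 0.667 CPM in oligodendrocytes, lower in the latter by a fitted log2 difference of −3.32 ± 0.68 (adjusted p = 0.000136). The size of that difference rested on 19 UMIs in OPCs and 5 in oligodendrocytes and was −1.48 with the looser and −4.95 with the stricter gate.

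The phosphatase Inpp5d and the receptor Cd33 were held by microglia in the same way. Inpp5d stood at 2752, 2036, 1889 and 2098 CPM in microglia and was 387-fold above OPCs and 730.2-fold above inhibitory neurons. Cd33, a sialic acid-binding receptor whose human counterpart is inhibitory, was at 265, 259, 205 and 222 CPM in microglia. This was 118-fold above OPCs, the next class, and 223-fold above oligodendrocytes. Cd33 had no UMI in astrocytes, against which microglia were at least 51.6-fold higher. Spi1, which drives myeloid and microglial identity, was at 288, 243, 236 and 249.6 CPM in microglia, 112-fold above OPCs and at least 56.3-fold above astrocytes, where it also had no UMI. Abi3, an adaptor of actin regulation, was at 331, 319, 262 and 266 CPM in microglia and 189.9-fold above oligodendrocytes.

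**Figure D1:**
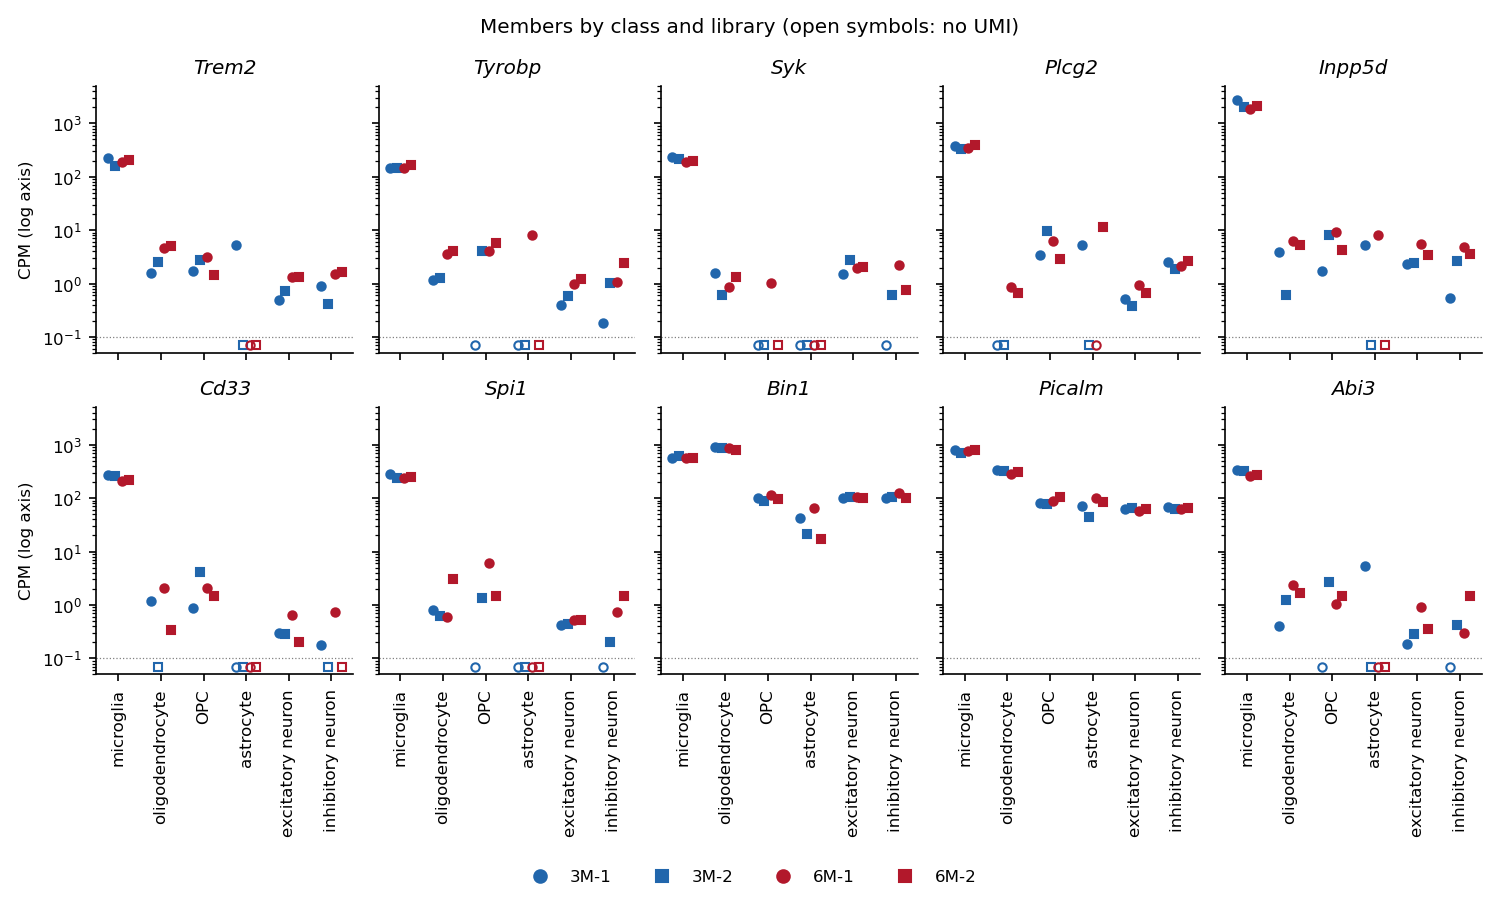
Level of each of the 10 genes in 6 classes, as CPM on a log axis, with 1 symbol for each library (blue, 3 months; red, 6 months; open symbols below the dotted line, no UMI). Inpp5d lies between 1889 and 2752 CPM in microglia and below 9.3 CPM in the other 5 classes, whereas Bin1 and Picalm are measurable in every class and Bin1 is highest in oligodendrocytes.

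Bin1, a membrane-bending protein of endocytosis, was higher in oligodendrocytes than in microglia. It stood at 894, 856, 882 and 785 CPM in oligodendrocytes and at 553, 617, 564 and 564 CPM in microglia, without overlap, and the fitted log2 difference was 0.98 ± 0.10 (adjusted p = 7.44e-10). The ratio of the pooled CPM, microglia over oligodendrocytes, was 0.667, a smaller difference than that of the fit, which also scales each sum by TMM. Microglia in turn were above inhibitory neurons by 2.06 ± 0.11 (adjusted p = 6.76e-17). Mean levels of 108, 104 and 100.4 CPM followed in inhibitory neurons, excitatory neurons and OPCs. The neuron classes did not differ beyond their spread (adjusted p = 0.301), and excitatory neurons were above OPCs by a fitted 0.34 ± 0.12 (adjusted p = 0.0156). Before TMM scaling the CPM of these 2 classes overlapped, at 102, 107, 105 and 102 in excitatory neurons and 102, 88.3, 115 and 96.7 in OPCs. The call was one that 55.1% of genes shared, and it was lost with the stricter gate (0.116), without 3M-2 (0.0925) and without 6M-2 (0.0634). Astrocytes were lowest at 43.1, 21.8, 65.7 and 17.2 CPM, below OPCs by a log2 difference of −1.62 ± 0.25 (adjusted p = 6.29e-06), in a comparison that called 27.6% of genes. The astrocyte values rested on 8, 4, 8 and 3 UMIs in 43, 70, 41 and 46 nuclei. Between mature oligodendrocytes and their precursors, Bin1 was higher in the former by 3.25 ± 0.12 (adjusted p = 1.06e-19). Bin1, Picalm and Plcg2 were the 3 genes called there, where 50.5% of all genes were.

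Picalm, which assembles clathrin at the membrane, had a different order. It was highest in microglia, at 799, 691, 779 and 809 CPM, and next in oligodendrocytes, at 331, 319, 279 and 309 CPM. The fitted log2 difference between them was 0.91 ± 0.09 (adjusted p = 7.94e-10). The ratio of the pooled CPM, microglia over oligodendrocytes, was 2.55, a larger difference than that of the fit with its TMM scaling. Oligodendrocytes were 1.98 ± 0.11 above OPCs (adjusted p = 2.02e-15). OPCs, astrocytes, inhibitory and excitatory neurons had means between 62.8 and 88.5 CPM, and no neighbours among them differed beyond their spread (smallest adjusted p = 0.216).

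Few UMIs of the 8 microglial genes other than Bin1 and Picalm were found in the other named classes, and they were not made up as in microglia. Pooled over libraries, microglia held 16616 UMIs of the 8 genes, excitatory neurons 1326, inhibitory neurons 224, oligodendrocytes 174, OPCs 78 and astrocytes 8. Syk was 5.37% (5.04 to 5.73) of the microglial UMIs and 23.0% (20.8 to 25.3) of those in excitatory neurons, with 95% Wilson intervals that cover counting error only. Plcg2 was 9.36% (8.93 to 9.82) in microglia, 22.8% (17.8 to 28.7) in inhibitory neurons and 24.4% (16.2 to 34.9) in OPCs. The receptor Trem2 was 5.04% (4.72 to 5.39) in microglia and 22.4% (16.9 to 29.2) in oligodendrocytes, and its adaptor Tyrobp 3.94% (3.66 to 4.25) and 16.7% (11.9 to 22.9). Inpp5d made up 56.3% (55.5 to 57.0) of the 8 genes' UMIs in microglia, 37.3% (34.8 to 40.0) in excitatory neurons and 27.6% (21.5 to 34.7) in oligodendrocytes. The microglial markers used for the gate were also present at a low level in these classes, with summed levels of 81.5, 119.9, 149 and 129.5 CPM in excitatory neurons and 129, 135, 179 and 184 CPM in oligodendrocytes. The source of these UMIs was not tested. A further 6603 nuclei (21.6%) passed no gate, and they held 5822 UMIs of the 8 genes with nearly the microglial make-up, 53.1% (51.8 to 54.4) Inpp5d and 6.44% (5.84 to 7.10) Syk. In these nuclei all 8 genes were higher in both 6M libraries than in both 3M libraries, as were Bin1 and Picalm. Inpp5d, for example, stood at 27.5, 28.7, 65.0 and 71.0 CPM and Trem2 at 2.46, 3.50, 7.45 and 8.20 CPM. Of the 8 genes, 6 followed this pattern in excitatory neurons, 5 in oligodendrocytes and 5 in inhibitory neurons. In OPCs 2 did, and in astrocytes 0. The share of all genes with this pattern was not counted in any of these classes. The pattern cannot be read as particular to the 10 genes or to the nuclei in no class. In the nuclei in no class it was not tested.

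**Figure D2:**
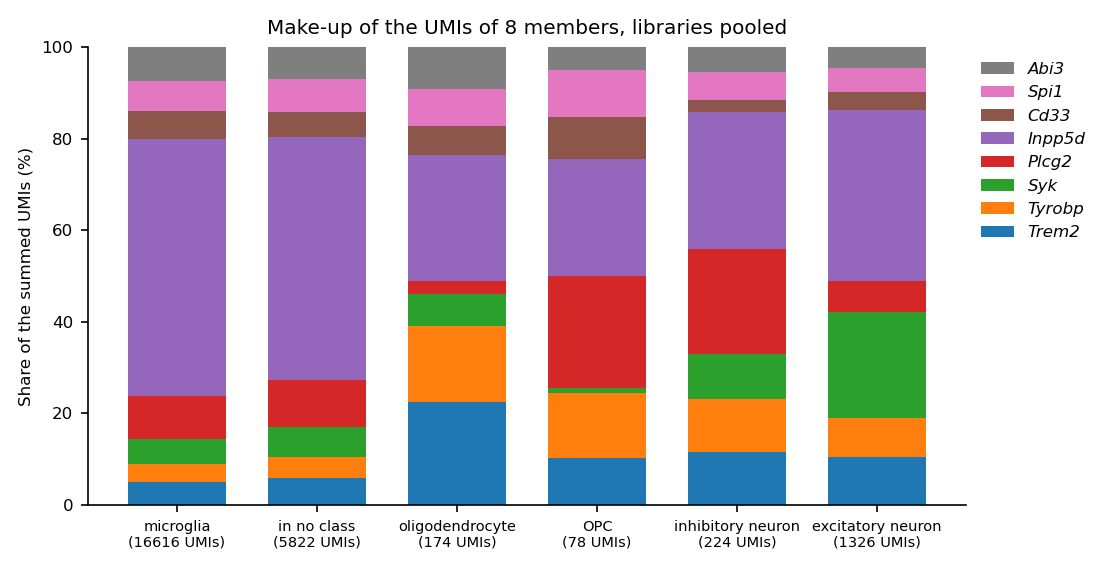
Share of each gene in the summed UMIs of the 8 genes, in percent, for microglia, nuclei in no class and 4 other classes, with the number of UMIs under each bar. Syk takes 23.0% in excitatory neurons against 5.37% in microglia, Plcg2 is widest in OPCs and inhibitory neurons, and the nuclei in no class resemble microglia.

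The genes most like Trem2, Bin1 and Picalm in level over the 24 sums of library and class were listed as a description, among 11074 genes with a mean of at least 10 CPM. The sums share libraries and classes. For Trem2 they were Abi3 (0.985), Ntpcr (0.984), Fermt3 (0.981), Pik3ap1 (0.980) and Fcgr3 (0.977), with Pearson's r of log2 CPM in parentheses. Abi3 is one of the 10 genes, and Fcgr3 encodes another receptor of the ITAM pathway. Those of Bin1 were Retreg1 (0.967), Snx30 (0.964), Kcnk13 (0.941), Rftn1 (0.930) and 5033421B08Rik (0.928), and those of Picalm were Snx24 (0.972), Dleu2 (0.971), Pknox1 (0.961), Scaf11 (0.960) and Plxdc2 (0.960). In oligodendrocytes, the genes listed for Bin1 had means from 94.8 to 274 CPM and those listed for Trem2 from 1.02 to 4.30 CPM. The oligodendrocyte sums were among those used to choose the genes, so this contrast follows from the choice.

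Between 3 and 6 months, none of the 10 genes changed in microglia at an adjusted p under 0.05, and the fitted log2 fold changes lay between −0.32 and 0.09. Over all genes, 12 of 11322 were called (0.106%), 8 higher and 4 lower at 6 months, and 867 had an unadjusted p under 0.05, none of them among the 10. The median fold change of the 10 genes was −0.11 on the log2 scale, beside 0.00326 for all genes. Syk, Cd33 and Abi3 were lower in both 6M libraries than in both 3M libraries, 3 of 10, a pattern found in 16.9% of all genes, and none of the 10 was higher in both, a pattern found in 19.7%.

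The receptor Trem2 was at 220.5, 159, 188 and 202 CPM, and its fold change was −0.00 ± 0.20 (log2, standard error, adjusted p = 0.9998). Both 6M libraries lay between the 3M libraries. Tyrobp at 148, 144, 148 and 168 CPM was higher only in 6M-2, with a fold change of 0.09 ± 0.18 (adjusted p = 0.96). Syk was lower in both 6M libraries, by a fitted −0.22 ± 0.17 (adjusted p = 0.846). Plcg2 overlapped between the ages, with 0.02 ± 0.17 (adjusted p = 0.994).

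Inpp5d was at 2752, 2036, 1889 and 2098 CPM, with one 3M library above the rest and the other between the 6M libraries. Its fold change was −0.29 ± 0.20 (adjusted p = 0.81). Without 3M-2, which left 1 mouse of 3 months, the fold change was −0.51. None of the 10 genes was called in any alternative that kept 2 mice of each age. Cd33 at 265, 259, 205 and 222 CPM did not overlap between the ages, with −0.32 ± 0.17 (adjusted p = 0.736). Spi1 overlapped, with −0.16 ± 0.17 (adjusted p = 0.911). Abi3 was at 331, 319, 262 and 266 CPM, the libraries of each age close to each other and apart from the other age, with −0.32 ± 0.16 (adjusted p = 0.717), and its overlap with genes of the opposite strand is given above. The fold changes of Bin1 and Picalm were −0.07 ± 0.16 (adjusted p = 0.965) and 0.07 ± 0.17 (adjusted p = 0.968). Each age is represented by 2 mice. These p-values set the age difference against the spread between mice of the same age, which edgeR estimates with information shared over all genes.

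**Figure D3:**
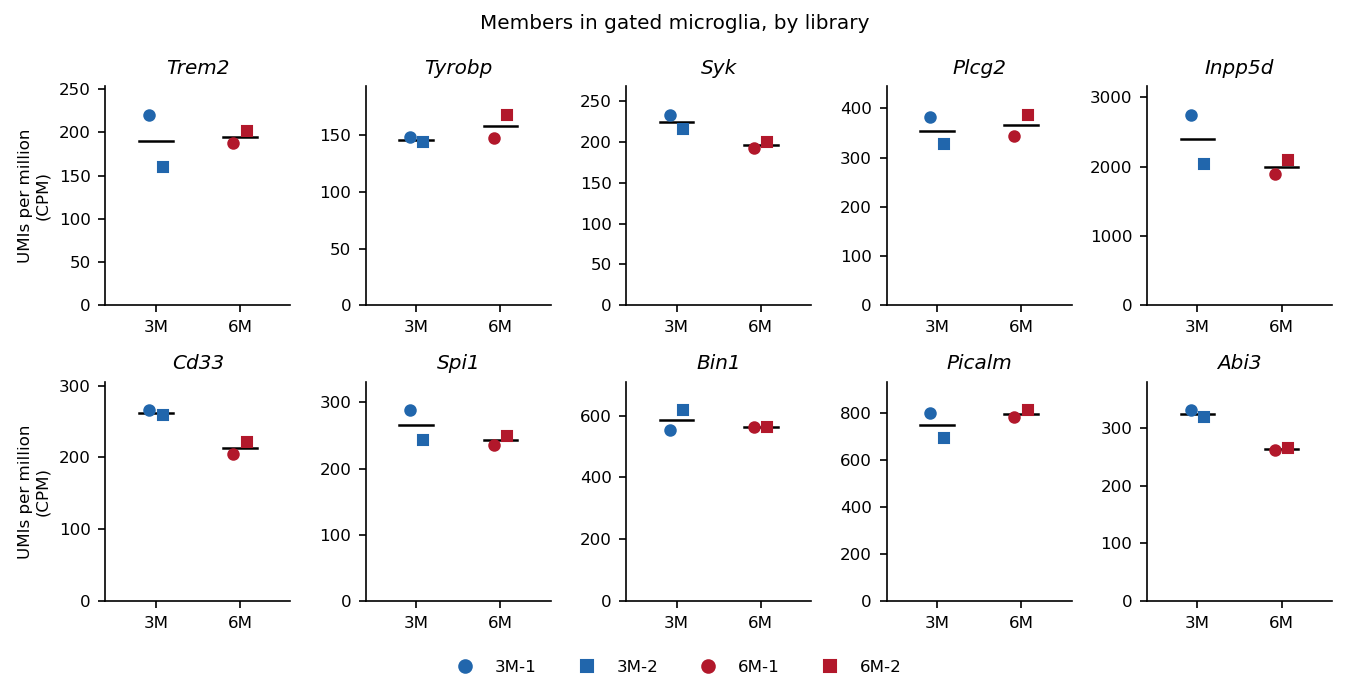
Level of the 10 genes in gated microglia of each library, in CPM, with a bar at the mean of the 2 libraries of each age and every axis starting at 0. Syk, Cd33 and Abi3 are lower in both 6M libraries, Abi3 for example at 262 and 266 CPM against 331 and 319 CPM, and the other 7 genes overlap between the ages.

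Markers of other cells in the microglial sums were given for the same libraries. Macrophage markers stood at 339, 237, 196 and 232 CPM, astrocyte markers at 367, 259, 572 and 518 CPM, excitatory neuron markers at 513, 511, 526 and 585 CPM, oligodendrocyte markers at 91.9, 137, 146 and 183 CPM, inhibitory neuron markers at 149, 185, 305 and 268 CPM and endothelial markers at 54.4, 61.6, 78.9 and 82.4 CPM. OPC markers, at 92.9, 144, 176 and 109 CPM, overlapped between the ages, as did mural or fibroblast and T cell markers, at up to 14.3 CPM. All lists named before these but the macrophage markers were higher in both 6M libraries. The summed level of 16 DAM markers was 1091, 881, 1256 and 1207 CPM in the same microglia, also higher in both 6M libraries. Their part in the age comparison of the 10 genes was not tested.

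The share of nuclei with a UMI was counted as well. After thinning every microglial nucleus to 1000 UMIs, which left out 26, 85, 33 and 9 nuclei, the share with a Trem2 UMI was 17.3% ± 3.60 at 3 months and 17.9% ± 0.101 at 6 months (SD, n = 2). The exact two-sided permutation test gave p = 1 for Trem2, and for 2 libraries against 2 it cannot go below 0.33. Inpp5d was detected in 88.9% ± 2.76 at 3 months and 83.9% ± 1.07 at 6 months, Cd33 in 23.9% ± 1.97 at 3 months and 18.8% ± 1.02 at 6 months, and Spi1 in 25.9% ± 3.26 at 3 months and 21.4% ± 0.961 at 6 months. Because of that limit the test could call no share of the 10 genes. Tyrobp, Syk, Inpp5d, Cd33, Spi1 and Abi3 stood at the limit, with shares that did not overlap between the ages. The part of all genes with such shares was not counted. Thinning to 2000 UMIs instead, over fewer and deeper nuclei, turned the direction for Cd33, to 29.8% and 34.7%, and for Spi1, to 34.0% and 35.2%. Without thinning, the mean shares were 29.3% and 32.3% for Trem2, 94.0% and 94.1% for Inpp5d and 38.1% and 32.4% for Cd33. In thinned oligodendrocytes, which should lack them, no library had more than 0.424% of nuclei with a UMI of any of the 8 genes other than Bin1 and Picalm. The mean number of Trem2 UMIs in a microglial nucleus was between 0.268 and 0.505 before thinning, and that of Inpp5d between 3.42 and 6.31.

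Other genes of the pathway gave 1 call. Of 28 ITAM effectors, which carry the signal of receptors such as Trem2 onward, 27 were tested and none passed in either direction (median log2 fold change −0.07, all genes 0.00326). The nearest were the kinases Fgr, at 0.80 ± 0.22 (adjusted p = 0.336), and Prkcb, at 0.55 ± 0.17 (adjusted p = 0.418). Of 16 brakes on ITAM signalling, 14 were tested and none passed (median −0.22). Dok3 was at −1.41 ± 0.37 (adjusted p = 0.303) and Sirpa, a receptor for Cd47, at −0.44 ± 0.20 (adjusted p = 0.637). Of 13 other receptors linked to ITAM adaptors, 8 were tested and none passed (median 0.06), with Itgam at −0.60 ± 0.17 (adjusted p = 0.332) and Cd300lb at 1.77 ± 0.57 (adjusted p = 0.442). Of 12 transcription factors that work beside Spi1, all were tested and none passed (median −0.20), with Sall1 at −0.38 ± 0.19 (adjusted p = 0.716) and Maf at −0.25 ± 0.17 (adjusted p = 0.81). Of 34 mouse counterparts of other Alzheimer risk genes, 28 were tested, 1 rose and none fell (median −0.02). The gene that rose was Apoe, a lipid carrier and a ligand of Trem2, at 184, 309, 1471 and 1201 CPM, with a fold change of 2.44 ± 0.24 (adjusted p = 0.00515). The astrocyte marker sums given above were also higher in both 6M libraries, and the astrocyte nuclei themselves held Apoe at 862, 3328, 2685 and 3171 CPM. The part of astrocyte RNA in the rise of Apoe was not tested.

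Outside microglia, no gene of the 10 passed the age test in any class. In oligodendrocytes 4 of them could be tested, where 0.0239% of 12531 genes were called, and Trem2 was at 1.2 ± 0.57 (log2, adjusted p = 0.857) and Bin1 at −0.15 ± 0.19 (adjusted p = 0.943). In OPCs 2 could be tested, 0% of 10060 genes were called by edgeR (388 at an unadjusted p under 0.05, 0 by DESeq2), and Bin1 was at 0.17 ± 0.22 and Picalm at 0.27 ± 0.22. In astrocytes only Picalm could be tested, at 0.65 ± 0.48, where 0% of 3757 genes were called by edgeR (196 at an unadjusted p under 0.05, 0 by DESeq2). In inhibitory neurons 4 could be tested, 0% of 14612 genes were called by edgeR (664 at an unadjusted p under 0.05, 3 by DESeq2), and Bin1 was at 0.12 ± 0.13. In excitatory neurons all 10 were tested, where 0.00526% of 19005 genes were called. An unadjusted p under 0.05 (edgeR) was found for 4 of the 10 and for 1066 of all genes. Bin1 was at −0.05 ± 0.14 and Picalm at −0.12 ± 0.15 there, whereas the 10 genes had a median of 0.66, beside −0.01 for all genes. Trem2 in these neurons was at 0.483, 0.726, 1.34 and 1.34 CPM and Inpp5d at 2.34, 2.44, 5.59 and 3.43 CPM, and the microglial marker sum in the same nuclei was 81.5, 119.9, 149 and 129.5 CPM. Neither gene was called (adjusted p = 0.8 and 0.813). The part of microglial RNA in these values was not tested.

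The age change in microglia was not called different from that in another class for any of the 10 genes. Over all 15490 genes, such differences were called for 0.232% against excitatory neurons, 0.103% against inhibitory neurons, 0.0968% against oligodendrocytes, 0.0516% against OPCs and 0.00646% against astrocytes. The smallest adjusted p among the 10 genes was that of Inpp5d against excitatory neurons, with a log2 difference of −1.13 ± 0.33 (adjusted p = 0.17), followed there by Trem2 at −1.07 ± 0.32 (adjusted p = 0.189). An unadjusted p under 0.05 (edgeR) was found against excitatory neurons for 5 of the 10 genes, beside 1238 of all genes. For inhibitory neurons these counts were 3 and 1111, for oligodendrocytes 3 and 1091, for OPCs 1 and 945 and for astrocytes 0 and 914.

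Microglia were next divided by DAM markers, to ask whether the 10 genes differ with that state within a mouse. Of 17 DAM markers listed, 16 had a row, and none of the 10 genes is one of them. Thinned nuclei with at least 2 distinct DAM markers were called positive (67, 40, 144 and 99 nuclei, or 15.3%, 13.7%, 21.2% and 18.0% of the thinned microglia) and those with none negative (299, 200, 343 and 304). A further 462 nuclei with exactly 1 marker, next to the limit, were left out, and the classes are ranges of a count and not cell types. The positive nuclei were deeper, with median UMIs of 2578, 1978, 1835.5 and 2255 against 2201, 1560, 1674 and 1999.5. Of 6622 genes tested with the mouse as a block, 902 were called (13.6%), 459 higher and 443 lower in positive nuclei, and 12 of the 902 were DAM markers themselves.

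None of the 10 genes was called higher in DAM-marker-positive microglia, and 3 were called lower, Inpp5d, Cd33 and Bin1, beside 6.69% of all genes called lower. The median log2 difference of the 10 genes was −0.29, and that of all genes 0.00844. Inpp5d stood at 1932, 1499.8, 1750.1 and 1603 CPM in positive and 2957, 2138, 1935 and 2270.3 CPM in negative nuclei, lower in 4 of 4 libraries. Its mean was 1696 ± 188 against 2325 ± 443 CPM (SD, n = 4), and its log2 difference −0.46 ± 0.10 (adjusted p = 0.000896, edgeR). In 6M-1 the positive and negative values were close to each other. Over the libraries the groups did not overlap, but narrowly, with the highest positive value at 1932 CPM (3M-1) and the lowest negative at 1935 CPM (6M-1). Cd33 was at 163, 155, 166 and 169 CPM in positive and 293, 288, 225 and 226 CPM in negative nuclei, without overlap and lower in 4 of 4 libraries, with −0.62 ± 0.16 (adjusted p = 0.00779). Bin1 was at 296, 559, 469.6 and 445 CPM against 633, 619, 570.1 and 592 CPM, again without overlap and lower in 4 of 4 libraries, with −0.49 ± 0.14 (adjusted p = 0.0116). The lowest value of Bin1 was that of 3M-1, and without this library the difference was −0.33 (adjusted p = 0.147).

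These calls depended on the fit. That of Inpp5d was lost when the sums of a mouse were treated as unpaired (adjusted p = 0.0657), that of Cd33 with DESeq2 (0.115) and without 3M-1 (0.0523), and that of Bin1 with DESeq2 (0.137) and unpaired sums (0.0827). All 3 genes stayed lower in positive nuclei under each of the 13 alternatives.

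The receptor and its adaptor had higher means in positive nuclei but did not pass. Trem2 was at 254, 179, 189 and 231 CPM in positive and 201, 136, 191 and 192 CPM in negative nuclei, higher in 3 of 4 libraries, with 0.20 ± 0.16 (adjusted p = 0.519). Tyrobp was at 151, 155, 196 and 202 CPM against 133, 123, 130.0 and 164 CPM, higher in 4 of 4 libraries, with 0.35 ± 0.17 (adjusted p = 0.211, and 0.0397 with the looser gate). Syk, at −0.29 ± 0.16 (adjusted p = 0.286), and Spi1, at −0.19 ± 0.15 (adjusted p = 0.519), were lower in 4 of 4 libraries, and Plcg2, at −0.29 ± 0.14 (adjusted p = 0.22), in 3 of 4, all short of the threshold. The share of all genes with the same direction in 4 of 4 libraries, or without overlap, was not counted. Abi3 was at −0.31 ± 0.16 (adjusted p = 0.239), with 3M-1 against the other 3 libraries, and passed with the looser gate (0.0196) and with at least 3 markers asked of positive nuclei (0.0236). Picalm was at −0.13 ± 0.12 (adjusted p = 0.569) and passed with the stricter gate, at −0.36 (0.0244).

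**Figure D4:**
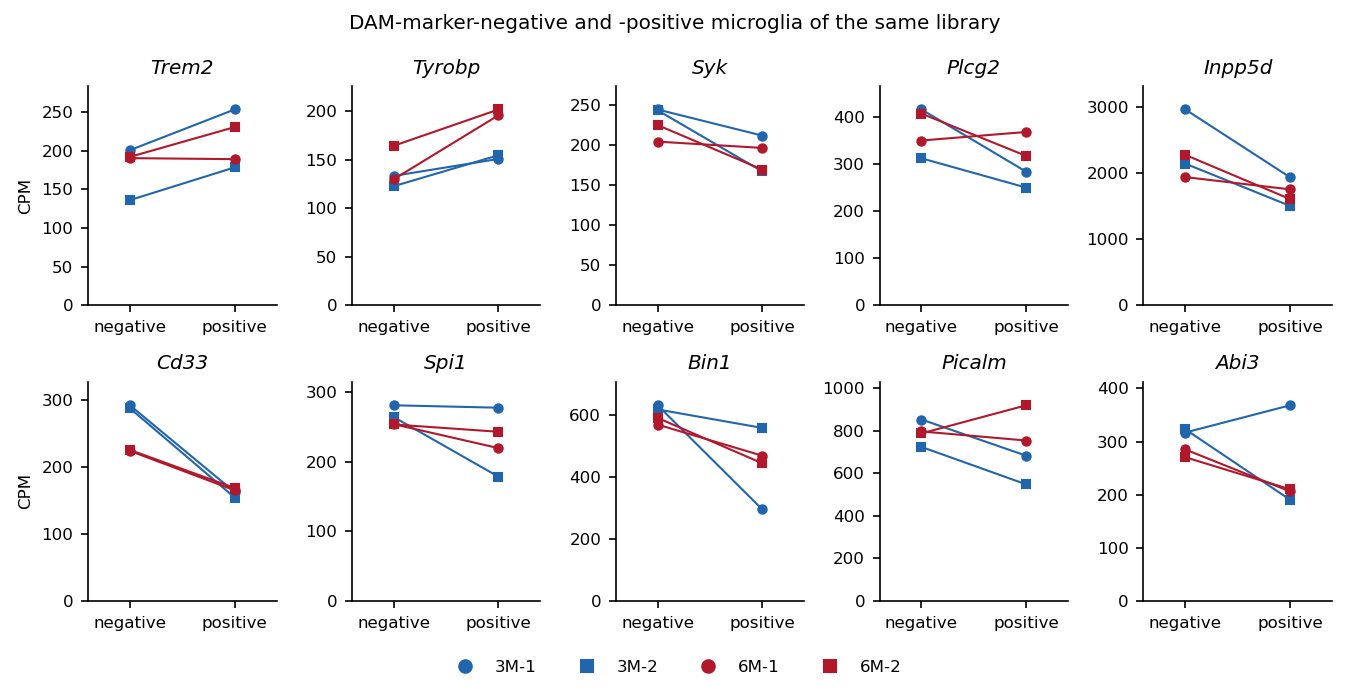
Level of the 10 genes, in CPM, in DAM-marker-negative and DAM-marker-positive microglia, with a line joining the values of 1 library and every axis starting at 0. All 4 lines fall for Inpp5d, Cd33, Bin1, Syk and Spi1, all 4 rise for Tyrobp, and the lines of Picalm, Plcg2, Abi3 and Trem2 differ between libraries. The share of all genes whose 4 lines run the same way was not counted.

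**Figure D5:**
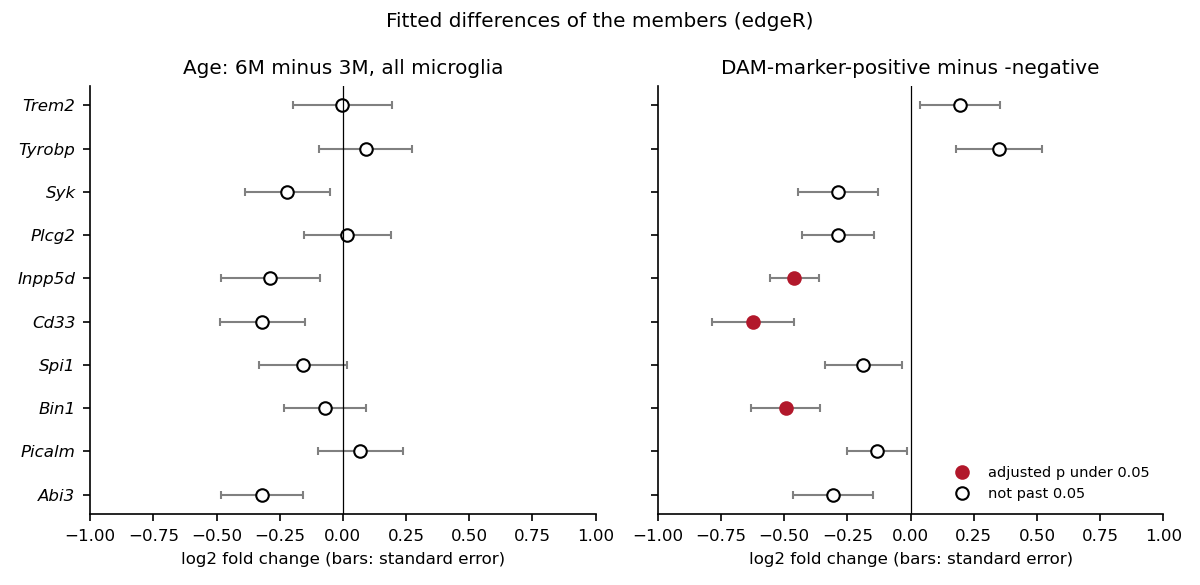
Fitted log2 fold change of the 10 genes with its standard error, for 6 against 3 months in all microglia (left) and for DAM-marker-positive against -negative microglia (right), where filled points have an adjusted p under 0.05. No point is filled on the left, and Inpp5d, Cd33 and Bin1 are filled on the right, between −0.62 and −0.46.

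The summed microglial markers did not set the positive and negative nuclei apart, ranging from 11991 to 13933 CPM in the positive and from 11865 to 14273 CPM in the negative sums. Macrophage markers ranged from 95.2 to 219.6 CPM in the positive and from 202 to 416 CPM in the negative sums, and endothelial markers from 71.4 to 214 CPM in the positive and from 29.5 to 51.6 CPM in the negative sums, where they were higher in positive nuclei of all 4 libraries. Between 9 and 11 of the 12 endothelial markers had no UMI in the positive sums. Oligodendrocyte markers stood at 115, 179, 149 and 272 CPM in positive and 83.2, 101, 146 and 168 CPM in negative nuclei. They were higher in positive nuclei of all 4 libraries, though the values of 149 and 146 CPM were close to each other. Astrocyte markers ranged from 248 to 551 CPM in the positive and from 272 to 620.4 CPM in the negative sums, inhibitory neuron markers from 95.2 to 253 CPM and from 156 to 299.7 CPM, and OPC markers from 54.3 to 125 CPM and from 90.4 to 179 CPM, and all 3 lists were lower in positive nuclei of all 4 libraries. Excitatory neuron markers stood at 519, 512, 466 and 527 CPM in positive and 516, 494, 536 and 601 CPM in negative nuclei. They were higher in positive nuclei of the 3M libraries and lower in those of the 6M libraries. The part of these markers in the differences was not tested.

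Other genes of the pathway are given for the same nuclei, where 13.6% of all genes were called and their median was 0.00844. Of 28 ITAM effectors, 25 were tested, 4 rose and 1 fell in positive nuclei (median 0.00946). Fgr, a kinase of the Src family, was at 235, 143, 166 and 189.5 CPM against 25.8, 13.3, 78.3 and 78.4 CPM, with 1.80 ± 0.27 (adjusted p = 1.19e-05). Rasgrp3, which activates Ras proteins, rose by 0.91 ± 0.13 (adjusted p = 4.05e-06), the adaptor Sh3bp2 by 1.14 ± 0.19 (adjusted p = 5.33e-05) and the adaptor Lat2 by 0.76 ± 0.22 (adjusted p = 0.0196). The lipid kinase subunit Pik3cg was lower, at −0.66 ± 0.22 (adjusted p = 0.0435). Of 16 brakes 11 were tested, and those that rose are given here (median 0.07). Sirpa rose by 0.68 ± 0.12 (adjusted p = 8.35e-05), and the phosphatase Inppl1, a relative of Inpp5d, rose by 1.22 ± 0.42 (adjusted p = 0.0493). The call of Inppl1 was lost under all 10 alternatives that gave a value, and those of Lat2 and Pik3cg under 8 and 9 of 13.

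Of 13 other receptors linked to ITAM adaptors 5 were tested, none rose and 2 fell (median −0.45). Siglech, which also signals through Tyrobp, was at 374, 476, 436 and 420.3 CPM in positive and 997, 822, 902 and 858 CPM in negative nuclei, lower without overlap, with −1.11 ± 0.12 (adjusted p = 8.81e-08). The integrin Itgam was at −0.50 ± 0.16 (adjusted p = 0.0274). Of 34 other risk gene counterparts 24 were tested, 3 rose and none fell (median −0.07). The cathepsin Ctsb was at 942, 762, 503 and 672 CPM against 239.6, 168, 261 and 289 CPM, with 1.5 ± 0.15 (adjusted p = 2.84e-08). Apoe rose by 1.17 ± 0.14 (adjusted p = 3.17e-07, and 0.247 with unpaired sums), in 4 of 4 libraries, and the lysosomal protein gene Grn by 0.65 ± 0.18 (adjusted p = 0.0111). All 12 Spi1 partners were tested, 1 rose and 2 fell (median −0.00374). Irf8 rose by 0.59 ± 0.14 (adjusted p = 0.00322), and Maf, at −0.71 ± 0.15 (adjusted p = 0.00155), and Ikzf1, at −0.36 ± 0.11 (adjusted p = 0.0252), were lower.

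Whether the difference with DAM markers changed with age was tested by an interaction. None of the 10 genes was called (smallest adjusted p = 0.802), and 10 of 7922 genes were (0.126%), all with a smaller or more negative difference at 6 months. Within DAM-marker-positive microglia alone, 26 of 4893 genes were called between 3 and 6 months, and within DAM-marker-negative microglia 6 of 9578, with none of the 10 genes in either. This division by age was added after the other results had been seen.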

How the data were processed

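Nuclei of the cortex of 4 GCLC-KO mice were sorted and sequenced by the authors with a 3′ single-cell kit, 1 mouse per library. The deposited values were raw UMI counts per gene and nucleus, made with Cell Ranger 7.0.0 per the file headers and aligned to mm10 per the labels. The annotation used by the authors is not given in the sources used here. The 10 genes and all gene lists were chosen with earlier results of these data known.

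Nuclei with more than 7000 genes detected, or with over 1% of their UMIs from mitochondria, were removed, after the limits of the study. A nucleus was gated into a class from at least 3 distinct markers, a score (mean log of marker UMIs scaled to 10000 per nucleus) of at least 0.25, and a ratio of at least 2 to the next class. None of the 10 genes was a marker. For DAM markers (17 listed, of which Clec7a was not matched by symbol) and for detection shares, each nucleus was thinned to 1000 UMIs. UMIs were then summed per library and class, without thinning, and tested with edgeR 4.0.16 (R 4.3.3) by quasi-likelihood with TMM factors and filterByExpr, with p-values adjusted over all genes tested by Benjamini-Hochberg and called under 0.05. Comparisons within a mouse had the mouse as a block. Shares were compared by an exact two-sided permutation test. The code was tested on simulated data. DESeq2 1.42.0, stricter and looser gates (4 markers and a ratio of 3, or 2 markers and a ratio of 1.5), no quality or count filter, other thinning, and leaving out each library were tried as alternatives.

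The sample titles give a replicate number and no batch. The age tests had no block, and the replicate number was taken as a block only in an alternative fit. Deviations of same-numbered libraries from their age means had a correlation of −0.0997 in microglia and between −0.13 and 0.0214 in the other classes. The fit with the replicate number as a block called 76 genes in the age test of microglia.

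Text named all 10 genes, the list genes past the threshold (at most 5 per direction and list, by p), or the 2 nearest where none passed, and the 5 genes most like Trem2, Bin1 and Picalm. The result of 1 list gene is not reported here. Gene positions were matched by identifier to GENCODE M21 (32235 of 32285 identifiers). Intervals and limits from counts cover counting error only.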

Additional observations from a re-analysis of the deposited data

Results flagged for a closer look

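Nuclei gated as endothelial, mural or fibroblast, macrophage and T cell were too few for any comparison, and the following sums over all libraries stood above the limit of 3 counts. The 19 endothelial nuclei, with 30005 UMIs in all, held 4 UMIs of Bin1 and 19 of Picalm, which assembles clathrin. In the 52 mural or fibroblast nuclei (84356 UMIs), Bin1 had 6 and Picalm 14 UMIs. The 7 macrophage nuclei (11832 UMIs) held 16 UMIs of the phosphatase Inpp5d, 4 of the transcription factor Spi1 and 17 of Picalm. No UMI of Trem2 or Abi3 was found in them, and so few UMIs in all cannot tell absence from the microglial level. In the 5 T cell nuclei (6999 UMIs) Inpp5d had 5 UMIs. These nuclei come from up to 4 mice and were not compared.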

How the results depend on the processing

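The direction of Inpp5d, Cd33 and Bin1 with DAM markers was the same under all 13 alternatives (log2 differences from −0.57 to −0.34, −0.76 to −0.55 and −0.83 to −0.33). In the age test of microglia, leaving out 3M-2 gave the only call among the 10 genes. The causes of the changes below were not tested.

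Genes called by age in microglia were 12 and became 7 with the looser gate, 1 without the quality filter, 118 without the filter on low counts and 76 with the replicate block. In oligodendrocytes 3 became 1 with the looser gate, 24 with DESeq2, 111 without the count filter, 25 with the block and 24 in one fit over all classes. In OPCs 0 became 24 without the count filter, 7 with the block and 2 in one fit. Astrocytes gave 14, 20 and 1 in the same order. In excitatory neurons 1 became 41 with DESeq2, 4 without the count filter, 7 with the block and 22 in one fit. In inhibitory neurons 0 became 3 with DESeq2, 56 without the count filter and 5 in one fit. A crossed pairing, added after the data were seen, called 74 genes in oligodendrocytes, 36 in excitatory neurons and 0 in OPCs. Leaving out 1 library gave 16 to 392 calls in microglia (of the 10 genes, 0 to 1), 2 to 275 in oligodendrocytes, 1 to 116 in OPCs, 4 to 24 in astrocytes, 17 to 2068 in excitatory neurons (of the 10 genes, 0 to 2) and 5 to 1536 in inhibitory neurons (of the 10 genes, 0 to 1). The highest of these counts was each time that without 3M-2, and without 3M-1 there were 231 calls in microglia, 315 in excitatory and 137 in inhibitory neurons.

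For the DAM-marker difference, 902 calls became 404 with DESeq2 and 537 with no block for the mouse, and 607 to 804 without 1 library. The 3 called among the 10 genes became 5 with the looser gate, 1 with DESeq2, 1 with no block and 1 to 3 without 1 library. Its change with age had 10 calls and gave 27 with the stricter gate, 1 with the looser gate, 1 without the quality filter, 2 with negative nuclei allowed 1 marker, 0 with DESeq2, no block, the unthinned gate or positive nuclei from 3 markers, and 3 to 12 without 1 library. Between neuron classes 2 of the 10 genes became 1 with the looser gate and 1 to 2 without 1 library. Between excitatory neurons and OPCs 5 became 2 with either gate and 1 to 5 without 1 library.

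For the age change in microglia against another class, 36 calls against excitatory neurons became 78, 55 and 154 with the stricter gate, the looser gate and no count filter, 1 with no block and 11 to 113 without 1 library (of the 10 genes, 1 with the looser gate, 2 without the count filter and 0 to 2 without 1 library). Against inhibitory neurons, 16 became 27 with the stricter gate, 34 with DESeq2, 83 without the count filter, 0 with no block and 10 to 33 without 1 library (of the 10 genes, 1 without the count filter and 0 to 1 without 1 library). Against oligodendrocytes, 15 became 35, 1, 6, 43, 73 and 0 with the stricter gate, the looser gate, no quality filter, DESeq2, no count filter and no block, and 2 to 21 without 1 library. Against OPCs, 8 became 4 with the stricter gate, 23 with DESeq2, 26 without the count filter, 0 with no block and 3 to 14 without 1 library. Against astrocytes, 1 became 4, 3, 10 and 12 with the stricter gate, the looser gate, DESeq2 and no count filter, and 0 to 9 without 1 library.

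Uncalled log2 changes by age crossed 0. That of Trem2 in microglia was 0.0624 with the stricter gate, 0.00561 without the quality filter, 0.000141 with DESeq2, 0.00955 without the count filter, 0.0213 with the block and 0.0350 in one fit, and −0.23 to 0.29 without 1 library. Plcg2 was −0.0263 with the looser gate and −0.11 to 0.16 without 1 library, Spi1 −0.29 to 0.00385 and Picalm −0.0558 to 0.21. In inhibitory neurons Picalm was −0.0278 with the stricter gate, −0.00056 with DESeq2, −0.00231 without the count filter and −0.0787 to 0.0868 without 1 library, and Bin1 −0.0110 to 0.235.

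The change in the share of microglia with a UMI, in percentage points, became 4.27 for Trem2, 3.26 for Tyrobp, −7.02 for Syk, −2.17 for Inpp5d, 4.90 for Cd33, 1.16 for Spi1 and −15.5 for Abi3 after thinning to 2000 UMIs. It was 0.124 for Inpp5d without thinning, 6.63 for Picalm and −3.65 for Abi3 with the looser gate, and −3.83 for Abi3 without the quality filter.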
